A study of Mus musculus with 2 samples.

Results

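The CRE probes are the array probes whose own sequence holds the full palindromic cAMP response element (CRE), the 8 bases TGACGTCA, with no mismatch. Of 473664 measured probes with a genome position on 2 mouse promoter arrays, 266 qualified, 145 of 236896 on array 1 and 121 of 236768 on array 2. They carry the names of 262 genes. The choice used sequence only and no measured value.

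The study asked where the transcription factor CREM (cAMP response element modulator) sits on germ cell DNA. Germ cells from 5 adult C57BL/6 male testes were fixed in 1% formaldehyde for 10 minutes and sonicated, and DNA was precipitated with a CREM antibody or with goat IgG as the control. The CREM precipitate was labelled Cy5 and the IgG precipitate Cy3 on both arrays. Each array was hybridised 1 time, the arrays hold different probes, and the submitters state that nothing was duplicated, so there was no test and no p-value; the number of arrays limits the precision, and dye and antibody cannot be told apart. The cells were pooled, and precipitated DNA gives no RNA marker by which the germ cells could be checked.

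The CRE is the classical binding site of CREB, CREM and ATF1, proteins of the bZIP family that bind it as dimers, with each monomer on one arm of the palindrome. Its centre is a CpG, the dinucleotide whose cytosine can be methylated. In the testis, the activator form of CREM is abundant in round spermatids, where the coactivator ACT works with it, and male mice without CREM stop spermatid development.

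The sequences below show the span of the CRE probes. Capitals mark the element, positions are those of mouse build mm9, each sequence is printed as the scanner file gives it, and the strand was not determined. The first 8 are probes above 2-fold on the CREM side with both precipitates well above background.
Phc1, array 1, chr6:122290577-122290636: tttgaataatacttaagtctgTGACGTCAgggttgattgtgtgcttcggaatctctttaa
Zc3h4, array 1, chr7:16984906-16984950: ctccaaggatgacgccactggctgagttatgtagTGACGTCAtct
Nup133, array 1, chr8:126473255-126473299: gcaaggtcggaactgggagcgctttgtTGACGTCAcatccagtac
Ccin, array 1, chr4:43996298-43996346: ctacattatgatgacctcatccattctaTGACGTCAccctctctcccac
Arih1, array 2, chr9:59334924-59334980: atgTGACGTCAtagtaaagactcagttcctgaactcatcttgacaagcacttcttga
Wdr5b, array 2, chr16:36041262-36041315: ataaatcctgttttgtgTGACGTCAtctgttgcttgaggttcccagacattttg
H2-Aa, array 2, chr17:34424813-34424869: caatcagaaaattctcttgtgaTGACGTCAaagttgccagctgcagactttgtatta
Zwint, array 2, chr10:72117558-72117607: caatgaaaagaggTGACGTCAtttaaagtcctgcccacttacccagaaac

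The next 6 are among the lowest, all above 4-fold on the IgG side, and hold 4 to 8 CpG.
2810453I06Rik (now Fam220a), array 1, chr5:144309553-144309597: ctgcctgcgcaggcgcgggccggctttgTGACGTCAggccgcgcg
Brca2, array 1, chr5:151325172-151325216: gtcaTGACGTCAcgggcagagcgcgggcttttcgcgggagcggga
Bach2, array 1, chr4:32325661-32325705: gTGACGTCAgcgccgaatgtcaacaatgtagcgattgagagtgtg
Lsm2, array 2, chr17:35119012-35119056: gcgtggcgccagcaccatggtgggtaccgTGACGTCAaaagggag
Zfp367, array 2, chr13:64253752-64253796: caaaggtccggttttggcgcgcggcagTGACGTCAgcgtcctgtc
Tbrg4, array 2, chr11:6526062-6526106: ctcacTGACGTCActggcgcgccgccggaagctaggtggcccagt

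A value here is the log2 ratio of CREM over IgG signal, centred on the array median, so 0 is the typical probe. A probe at 1 or more, 2-fold, was counted on the CREM side, and one at -1 or less on the IgG side. Of the 266 CRE probes, 144 on array 1 and 115 on array 2 could be used; the other 1 and 6 were not well above background in either channel. Repeated control spots had a median SD of 0.14 on array 1 and 0.12 on array 2, from 17 control probes each, which is the only measure of spot noise. It describes a single spot and does not measure the uncertainty of a median over many probes.

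CRE probes were more often far from 0 than other probes, in both directions. On the CREM side lay 21 of 144 (14.6%) on array 1, where 9.05% of all probes did, and 22 of 115 (19.1%) on array 2, where 9.85% did. On the IgG side lay 28 (19.4%) and 29 (25.2%), beside 6.47% and 6.57% of all probes. The medians were -0.12 and -0.16, close to those of all probes (0.00 and -0.00). The middle of the distribution was wider, with quartiles of -0.83 and 0.54 on array 1 and -1.01 and 0.77 on array 2, where all probes had -0.38 and 0.43, and -0.38 and 0.44. The extremes were -2.97 and 3.59 on array 1 and -3.42 and 4.38 on array 2.

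The same held at other thresholds. At 4-fold, 7 CRE probes of each array stood on the CREM side (4.86% and 6.09%, all probes 1.32% and 1.64%), and 12 and 8 on the IgG side (8.33% and 6.96%, all probes 0.915% and 1.1%). At 1.5-fold the CREM side held 33 and 33 (22.9% and 28.7%, all probes 19% and 19.6%), and the IgG side 47 and 38 (32.6% and 33%, all probes 15.8% and 16%). Near 2-fold, Sgip1 at 1.07 and Ccin at 1.21 lay just inside on array 1, with Plcz1 at 0.99 and Dhx36 at 0.96 just outside. The IgG signals of Sgip1 and Plcz1 were not well above background, so these measured values stand for at least 1.57-fold and at least 1.62-fold. On array 2, Tmem151a at 1.05 and Nhlrc2 at 1.08 lay inside, and Gli1 at 0.91 and Chrne at 0.87 outside. On the IgG side, Tmc7 at -1.06 and Kif17 at -1.11 lay inside and Atp6v0a4 at -0.95 and Ldhd at -0.94 outside on array 1, and Pcdhga9 at -1.03 and Nubpl at -1.04 inside and Cct4 at -0.99 and Atp6v0c at -0.98 outside on array 2.

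The shares depend on background handling: with normexp background correction 6.94% and 11.3% of CRE probes were on the CREM side, beside 2.13% and 4.88% of all probes. The IgG-side shares of CRE probes fell more with normexp, as given in the section on processing, so the IgG side depends most on this choice. The medians turned to 0.10 and 0.07 once the trend of the ratio with GC was removed.

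The direction of a CRE probe ran with its number of CpG and with its GC content, and these were not told apart. In GC classes split at 40%, 48%, 56% and 64%, CRE medians on array 1 were 0.24, 0.41, -0.16, -0.84 and -1.61. On array 2 they were 0.56, 0.40, -0.42, -1.04 and -1.66. Over all probes the medians fell from 0.14 and 0.11 to -1.32 and -1.27. Median GC was 44.9% and 42.2% for CREM-side CRE probes, and 62.2% and 60% for IgG-side ones. Every CRE probe holds at least 1 CpG, and 79 on array 1 and 64 on array 2 held 1 to 2. Their medians were 0.15 and 0.31, and 19% and 26.6% were on the CREM side, beside 10.5% and 11.1% of all probes with 1 to 2 CpG. On the IgG side were 3 of 79 (3.8%) and 4 of 64 (6.25%), about the share of all such probes (5.43% and 5.13%). CRE probes with 3 CpG, 24 and 20 in number, were also more often on the CREM side, with 4 (16.7%) and 4 (20%) beside 8.1% and 9.06% of all probes with 3 CpG. Their medians were -0.20 and -0.24.

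CRE probes with 4 or more CpG went the other way. There were 41 and 31 of them, with medians of -1.06 and -1.47, and 51.2% and 71% were on the IgG side. All probes with 4 or more CpG also did so (medians -1.47 and -1.43, 74.6% and 69.4% on the IgG side). Such probes made up 28.5% and 27% of CRE probes but 3.29% and 3.35% of all probes. The median IgG signal of CRE probes was 515 and 682 with 1 to 2 CpG and 1168 and 2065 with 4 or more, while the CREM signal was 707 and 928 against 797 and 750. So the IgG channel differed more between these classes than the CREM channel, and its part in the ratios was not tested. On the CREM side were 2 (4.88%) and 1 (3.23%) of the CRE probes with 4 or more CpG, beside 2.06% and 2.89% of all such probes.

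**Figure D1:**
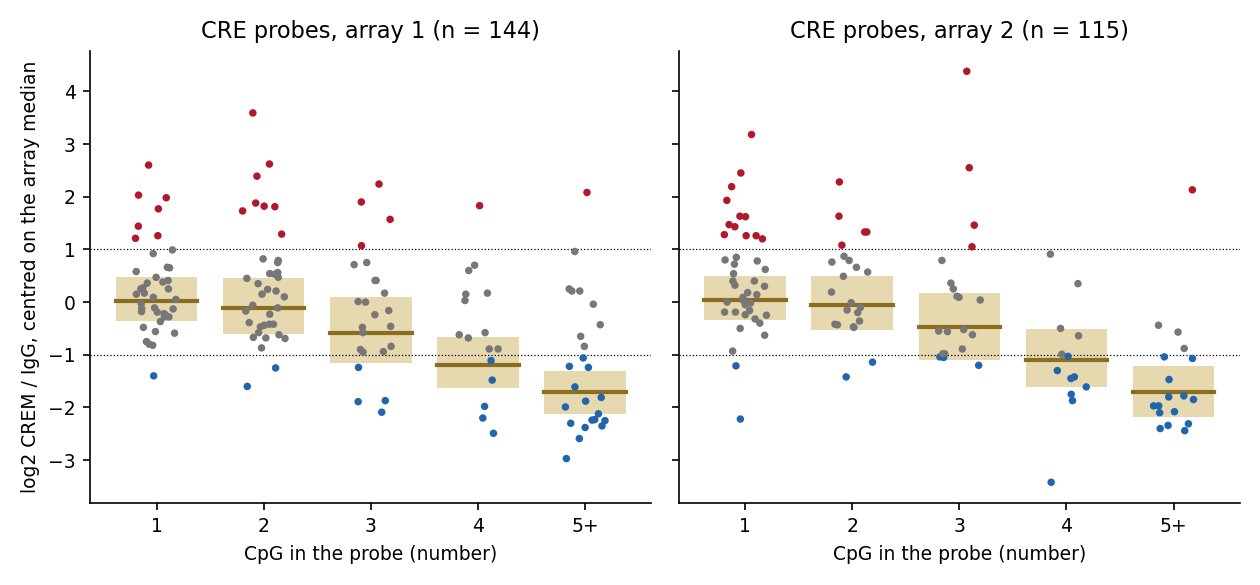
Each point is a CRE probe at its log2 CREM over IgG ratio (vertical axis), by its number of CpG (horizontal axis, points spread sideways at random), with red at 1 or more and blue at -1 or less. Bars give the median and shaded boxes the quartiles of all probes with the same number of CpG. CRE probes with 1 to 2 CpG reach the CREM side more often than all probes of that class. Of CRE probes with 4 or more, 51.2% on array 1 and 71% on array 2 lie at -1 or less. With exactly 4 CpG on array 1 it is 5 of 16.

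Against probes of equal GC content (bins of 4 percentage points) and equal CpG number, CRE probes were higher. The median difference was 0.20 on array 1, where 88 of 144 lay above their class median, and 0.17 on array 2, with 67 of 115 above. These median differences are small, and their uncertainty was not measured. The upper tail was longer: 35 (24.3%) and 26 (22.6%) were 2-fold or more above their class median, beside 7.94% and 8.82% of all other probes. Below it by 2-fold were 6 (4.17%) and 4 (3.48%), beside 3.14% and 3.77%.

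Probes with only the half-site of the element (TGACG or, on the other strand, CGTCA) were the most similar set, 4567 and 4651 used probes. They had medians of -0.09 and -0.05, 11.1% and 11.8% on the CREM side and 16.6% and 14.3% on the IgG side. At equal GC and CpG the half-site probes differed by 0.01 and 0.02 at the median, and 11.2% and 11.6% were 2-fold above their class. With 1 to 2 CpG, 12.2% and 12.7% of half-site probes were on the CREM side, against the 19% and 26.6% of the full element.

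Among probes whose sequence holds an 8-base palindrome with CG in its centre, the place of the full CRE depended on the measure. By median it ranked 24 of 56 palindromes on array 1 and 28 of 55 on array 2, and by CREM-side share 11 and 10. Counting only probes with up to 2 CpG, its CREM-side share ranked 5 and 3. GATCGATC was higher on both arrays, at 28% of 25 probes on array 1 and 28.6% of 14 on array 2. TATCGATA was higher on array 2 only, at 35% of 20 probes, with 13.6% of 22 on array 1. Of the 12 words with 1 base changed, TTACGTCA had the highest such share on array 1, 19.8% of 86 probes, above the 19% of the full element, but 14.9% of 87 on array 2. TGATGTCA, which has lost the CpG, had the highest on array 2, 20.1% of 733 probes, below the 26.6% of the full element, and 15.1% of 703 on array 1.

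The named probes on the CREM side of array 1, in both channels well above background, were led by Phc1, a subunit of polycomb repressive complex 1. Its CREM signal was 2478 and its IgG signal 397, a ratio of 2.62, and 2 of its 3 neighbouring probes were also on the CREM side. Probes of 2410018C20Rik (now Mri1), an enzyme of methionine salvage, and Zc3h4, a zinc finger protein, followed at 2.60 and 2.39. Nup133, a nuclear pore scaffold protein, stood at 2.24, with signals of 3837 and 801, and its 6 probes from 400 to 1000 bp were all on the CREM side. Below it were the mitochondrial protein Opa3 at 2.08, the ribosome assembly factor Ppan at 2.03 and the junction protein Pkp4 at 1.98. The other members among the 12 highest were March7 (now Marchf7), a ubiquitin ligase, at 1.90, 4931417E11Rik at 1.73, Pdcl3 at 1.57, Tmem162 (now Fam187b) at 1.44 and Tcf25 at 1.29. Ccin encodes calicin, a structural protein of the sperm head, and stood at 1.21 with signals of 7957 and 3372.

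On array 2, among probes with both channels well above background, the highest was Arih1, a ubiquitin ligase, at 3.18, with signals of 16608 and 1803. The corepressor Tle2 stood at 2.45 and the WD-repeat protein Wdr5b at 2.19. Ccdc86 stood at 2.13 and was the only CRE probe of array 2 with 4 or more CpG on the CREM side. Eif1, a translation initiation factor, and Pcdhga5, a protocadherin of the gamma cluster, both had 1.63, H2-Aa, a chain of MHC class II, 1.62, and the mitochondrial ribosomal protein Mrps30 1.47. The transcription factor Foxc1 at 1.46, Trim52 at 1.33, the elongation factor Aff4 at 1.33 and Spata7, a ciliary protein of photoreceptors, at 1.28 completed the 12. Zwint, a kinetochore protein, at 1.26 was outside the 12 and was chosen after its values were seen, because 5 of its 6 neighbours were on the CREM side too.

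A further 7 CREM-side probes on each array had an IgG signal not well above background, so their ratios are bounds; those given here were chosen after their values were seen. Ift57, a protein of intraflagellar transport in cilia and flagella, had 1268 and 60.2, a measured 4.38 and at least 4.35-fold. The same bound was at least 4.1-fold for Trmt12, 3.41-fold for Baz2b, 2.92-fold for Zbtb37, 2.41-fold for Mlf1 and 1.25-fold for Nf1. For Trabd, Btn1a1 and Dio2 no bound above 1 could be given, and with normexp these and Nf1 read below 0.

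The lowest CRE probes with both channels well above background, 6 per array, were CpG-rich. On array 1 they were 2810453I06Rik (Fam220a) at -2.97, Pwwp2b at -2.59, the bZIP repressor Bach2 at -2.49, the apoptosis inhibitor Birc2 at -2.38, the glycosyltransferase Galnt11 at -2.35 and Brca2, a protein of homologous recombination, at -2.30. The Brca2 signals were 1196 in CREM and 5805 in IgG. On array 2 they were Lsm2, a protein bound to U6 small nuclear RNA, at -3.42 (signals 347 and 3672), Zfp367 at -2.44, Tbrg4 at -2.40, 2310016C16Rik (now Gpx8) at -2.34, the small GTPase Rap1b at -2.31 and BC021395 at -2.10. Each of these 12 probes held 4 or more CpG. Slc36a2 on array 2, chosen after its values were seen, held 1 CpG and measured -2.22, lower than BC021395; its CREM signal of 74.2 was not well above background, and IgG was at least 3.37-fold higher. As the median of 3 neighbouring probes, Birc2 read 0.11, Tbrg4 1.51 and 2310016C16Rik 0.33, so these lows rest on the single probe. With normexp the lows of array 1 moved toward 0. There 2810453I06Rik read -0.52, Pwwp2b -0.32, Bach2 -0.24, Birc2 -0.25, Galnt11 -0.72 and Brca2 -1.35. On array 2, Zfp367 read -1.39, Tbrg4 -1.31 and Rap1b -1.04 with normexp.

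Lists of genes known for cyclic AMP biology were searched for CRE probes. The share of all genes on the arrays with a CRE probe was not counted, so these counts are not read as few or many. Of 25 testis CREM target genes on the arrays none had a CRE probe, and none of their RefSeq promoters held the full element. Over all RefSeq promoters, 549 of 27025 gene symbols held it, beside 5 of 42 CREB target genes and 3 of 52 bZIP factors. Of 40 CREB target genes, 2 had one: Vgf, a neuropeptide precursor, at -1.24, and Pmaip1, an apoptosis gene, which was dim in both channels. Of 51 bZIP factors, 5 had one, with Jund at 0.60, Batf2 at -0.40, Batf at -0.93, Hlf at -1.42 and Bach2 at -2.49. Kif17, a kinesin whose testis form transports the coactivator ACT, had -1.11, and Akap12, an anchor of protein kinase A, -0.05. None of these 8 used probes was on the CREM side (all probes 9.05% and 9.85%) and 4 were on the IgG side (all probes 6.47% and 6.57%), too few to read a share from. Of 50 spliceosome genes 1 had a CRE probe, Lsm2, and of 26 circadian genes 1, Hlf, an output factor of the clock. The lists of cholesterol synthesis and of Sertoli, Leydig and germ cell marker genes had no CRE probe.

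In 1 place several CRE probes lay within 1000 bp of each other, at Map1lc3a, whose product LC3 coats autophagosomes. They read 0.41, with the IgG signal not well above background and no bound above 1, then -1.25 and -2.20. The probes held 3, 2 and 4 CpG.
Map1lc3a, chr2:155101988-155102032: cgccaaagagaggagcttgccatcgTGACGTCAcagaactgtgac
Map1lc3a, chr2:155102156-155102200: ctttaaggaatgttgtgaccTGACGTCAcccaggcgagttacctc
Map1lc3a, chr2:155102429-155102473: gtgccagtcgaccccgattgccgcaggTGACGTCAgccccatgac
Only 1 probe held the element 2 times, at Hic1, a zinc finger repressor, and it read -1.47 while 4 of the 7 probes from 400 to 1000 bp from it were on the CREM side.
Hic1, chr11:74986764-74986808: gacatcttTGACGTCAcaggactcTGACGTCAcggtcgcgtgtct

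A C or G beside the element went with lower medians on both arrays, but not once the trend of the ratio with GC was removed. The medians for A, C, G and T were then 0.50, -0.10, 0.10 and -0.11 on array 1. On array 2 they were -0.02, 0.01, 0.14 and 0.32. With both strands folded, each element has 2 ends. The values below are without that removal. On array 1 an A beside the element went with a median of 0.41 and 25.4% of 59 ends on the CREM side, and a T with -0.03 and 5% of 40 ends. On array 2 the A had a median of -0.16 and 21.1% of 57 ends, and the T 0.34 and 19% of 42. A C had -0.42 and -0.45, with 30.3% and 29.7% of its ends on the IgG side, and a G -0.42 and -0.34, with 19.3% and 28.8%. On the CREM side were 9.21% and 15.6% of the C ends and 15.6% and 21.2% of the G ends. By place of the element in the probe, the class with the highest CREM-side share differed between the arrays. With the element 0 to 4 bases from the nearest end it was 22.6% of 31 probes on array 1 and 17.2% of 29 on array 2. With 5 to 9 bases it was 10.5% of 38 and 9.68% of 31, and with 10 or more 13.3% of 75 and 25.5% of 55. All CRE probes had 14.6% and 19.1%.

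Over all CRE probes, the surroundings were on the CREM side far more often than the CRE probes themselves. For CRE probes with 1 to 2 CpG the difference was small. Probes were spaced 183 and 182 bp apart at the median. Of 725 probes without the element that started more than 400 and up to 1000 bp from a CRE probe, called flanks here, on array 1, 249 (34.3%) were on the CREM side, where 8.97% of the remaining probes were. On array 2 it was 214 of 594 (36%), where 9.78% of the remaining probes were. Counting each centre and distance, the share was 24.9% and 34.2% at 1 to 200 bp, 34.9% and 37.7% from 400 to 700 bp, 25.1% and 24.9% from 1000 to 2000 bp, and near that of all probes from 2000 to 3000 bp. Around half-site probes it was 13.3% and 15.1% from 400 to 700 bp.

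The gap between probe and flanks was widest for CRE probes with 4 or more CpG. With 1 to 2 CpG the CREM-side share was 19% and 26.6% at the probe. Around these probes it was 24% and 31.3% at 1 to 200 bp, and 20.7% and 25.5% from 400 to 700 bp. Around CRE probes with 4 or more CpG, 54.4% of 114 and 56% of 84 probes from 400 to 700 bp were on the CREM side, while 4.88% and 3.23% of those CRE probes were. Around other probes with 4 or more CpG the share at this distance was 17.2% and 18.7%. These CRE probes lay below their neighbours within 500 bp by -1.49 and -2.09 at the median, against -0.92 and -0.91 for other probes with 4 or more CpG. CRE probes with 1 to 2 CpG differed from their neighbours by only -0.06 and -0.03 at the median. A neighbour within 500 bp on the CREM side stood beside 28 of 40 (70%) and 26 of 31 (83.9%) CRE probes with 4 or more CpG. It stood beside 45.9% and 49.7% of half-site probes and 31.6% and 33.8% of other probes of that class. Whether probe composition or the place of CREM on the DNA sets this dip was not tested.

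**Figure D2:**
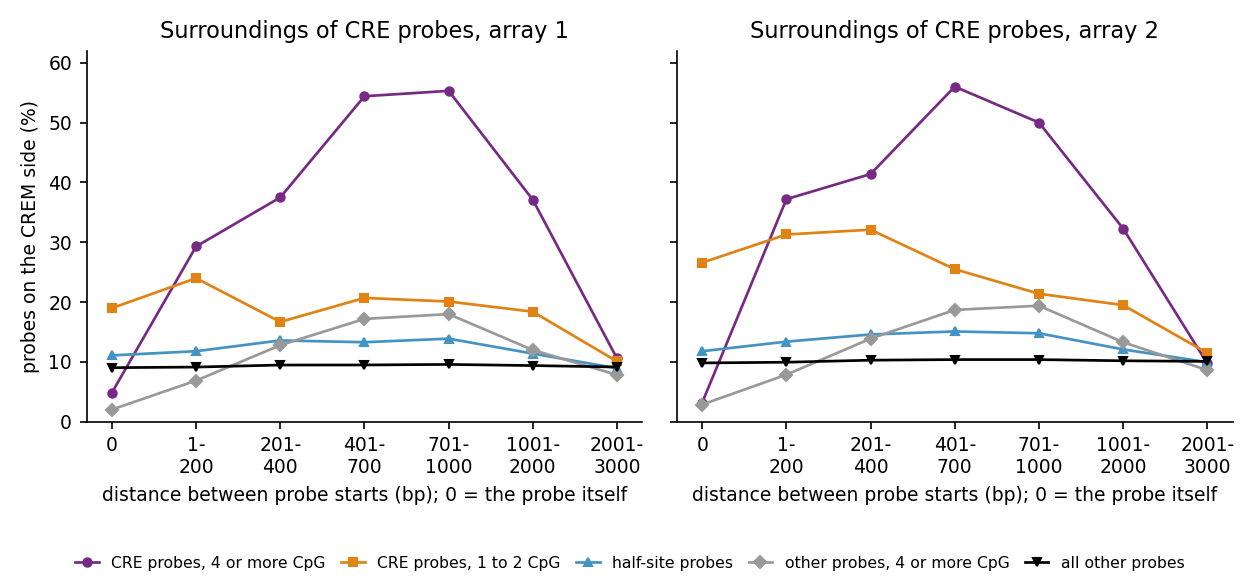
The share of probes on the CREM side (vertical axis, percent) is plotted against the distance between probe starts (horizontal axis, bins in bp), for 5 kinds of centre probe on each array. Around CRE probes with 4 or more CpG it rises from 4.88% and 3.23% at the probe to 54.4% and 56% from 400 to 700 bp, and it is back near 10% from 2000 to 3000 bp.

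Taking each CRE probe once, with at least 3 probes from 400 to 1000 bp, the median of those flanks was itself at 1 or more for 39 of 133 (29.3%) on array 1 and 40 of 106 (37.7%) on array 2. For all other probes it was 3.84% and 4.48%, and for half-site probes 7.71% and 9.75%. With 4 or more CpG it was 22 of 41 (53.7%) and 18 of 31 (58.1%), beside 10.1% and 12.7% of other probes in that class. Half-site probes in that class lay between, at 18.3% and 22.3%. Inside RefSeq promoters that class gave 13 of 19 (68.4%) and 12 of 16 (75%) for CRE probes. Half-site probes there gave 28.4% and 34.8%, and other probes 12.7% and 17.6%. The IgG-side CRE probes had such flanks in 15 of 27 and 16 of 29 cases, and the CREM-side CRE probes in 6 of 19 and 9 of 20. More IgG-side CRE probes than CREM-side ones thus had flanks with a median on the CREM side. The sides also differ in CpG number. On the IgG side 75% and 75.9% of CRE probes held 4 or more CpG, and on the CREM side 9.52% and 4.55%. The sides were not compared at equal CpG number.

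Single genes show the dip, and the 5 IgG-side probes with the highest flank medians were picked after their values were seen. The probe of 2610028A01Rik, now Pinx1, an inhibitor of telomerase, read -1.80, and its 6 flanking probes were all on the CREM side with a median of 3.17. The probe of Srrd read -2.24 with a flank median of 2.61, the lowest Map1lc3a probe -2.20 with 2.47, 2810453I06Rik -2.97 with 2.31 and Galnt11 -2.35 with 2.21. Brca2 read -2.30 while its 5 flanking probes were all on the CREM side, with a median of 1.88. Lsm2 read -3.42 with a flank median of 1.63 over 4 probes. Bach2, at -2.49, had a flank median of 0.49, and Zfp367, at -2.44, had -0.53, so not every low CRE probe had high flanks.

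**Figure D3:**
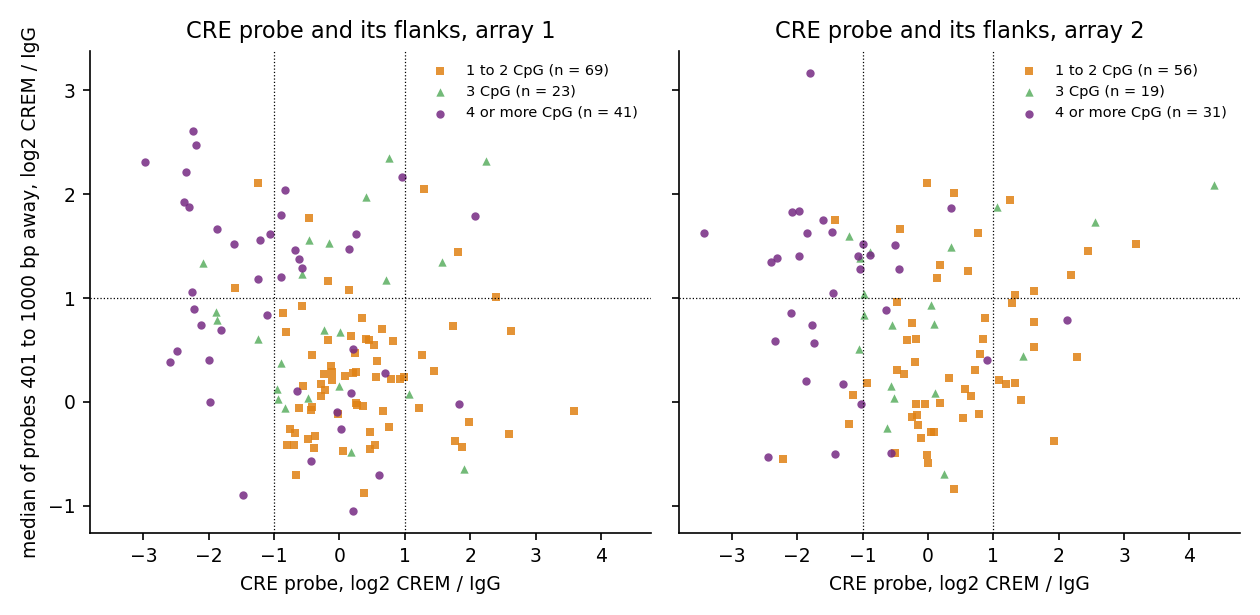
Each point is a CRE probe with at least 3 probes from 400 to 1000 bp, by its own log2 CREM over IgG ratio (horizontal axis) and the median ratio of those flanks (vertical axis); dotted lines mark -1 and 1. Most points in the upper left, where the probe is at -1 or less and the flanks are at 1 or more, have 4 or more CpG.

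RefSeq promoters give the position of the element relative to the transcription start. Of 32851 promoters in the RefSeq table (GRCm38.p6, 250 bases before to 50 after each start), 588 (1.79%) held TGACGTCA, which reads the same on both strands. There were 85 CRE probes that lay wholly in such a promoter by exact sequence match, 45 on array 1 and 40 on array 2. The first base of the element lay at -49 and -29.5 from the start at the median, within -223 to 23 and -190 to 3. It was within the 100 bases before the start in 35 of 45 and 31 of 40.

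Of the promoter CRE probes with 1 to 2 CpG, 4 of 15 (26.7%) and 6 of 14 (42.9%) were on the CREM side, beside 13.3% and 15.9% of other promoter probes of that class. Those with 4 or more CpG were on the IgG side in 11 of 19 (57.9%) and 13 of 16 (81.2%), beside 75.8% and 70.8%. Members on the CREM side with a promoter match included Nup133 at -124, Fam187b at -46, Ccin at -50, Mlf1 at -54 and, for the Zbtb37 probe, Gas5 at -46 on array 1. On array 2 they included Wdr5b at 3, Ccdc86 at -23, H2-Aa at -74, Spata7 at -7, Zwint at -23 and Ift57 at -162.

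**Figure D4:**
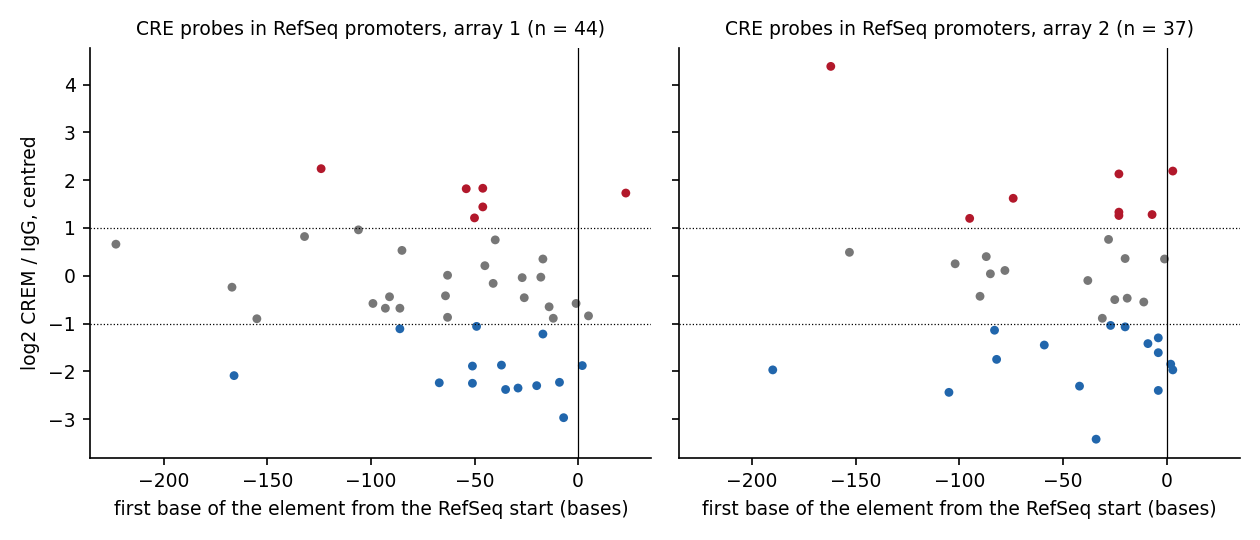
Each point is a used CRE probe inside a RefSeq promoter, by the position of the element's first base from the start (horizontal axis, bases, negative before the start) and its log2 CREM over IgG ratio (vertical axis). Elements gather in the 100 bases before the start, and probes on the CREM side (red) and the IgG side (blue) share that stretch.

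The 250 bases before the start of Ccin and Lsm2 are shown to set a CREM-side promoter beside an IgG-side one. The Ccin stretch has 59.6% GC and 8 CpG, and the Lsm2 stretch 72% GC and 35 CpG, with 1 element each.
Ccin, RefSeq, GRCm38.p6, in transcript direction: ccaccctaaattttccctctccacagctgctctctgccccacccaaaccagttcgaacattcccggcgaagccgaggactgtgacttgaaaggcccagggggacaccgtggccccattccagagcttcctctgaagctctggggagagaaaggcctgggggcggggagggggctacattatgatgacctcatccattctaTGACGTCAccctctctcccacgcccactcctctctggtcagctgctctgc
Lsm2, RefSeq, GRCm38.p6, in transcript direction: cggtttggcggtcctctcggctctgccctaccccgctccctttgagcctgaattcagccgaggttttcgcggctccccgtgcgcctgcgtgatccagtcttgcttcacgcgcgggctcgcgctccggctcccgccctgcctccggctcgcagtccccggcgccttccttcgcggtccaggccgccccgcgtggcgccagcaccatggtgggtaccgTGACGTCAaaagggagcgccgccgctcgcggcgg

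Promoters that hold the element were also read on their other probes, which lack it. In promoters that hold the element, 59 of 127 probes (46.5%) on array 1 and 65 of 128 (50.8%) on array 2 that lack the element and hold 0 to 2 CpG were on the CREM side. In promoters without it the same kind of probe was on the CREM side in 12.4% and 14.5%. The difference held within each CpG class. With no CpG the shares were 19 of 33 (57.6%) and 14 of 27 (51.9%), beside 12.1% and 14.1%. With 3 CpG they were 31% and 31%, beside 7.96% and 9.31%, and with 4 or more 9.09% and 18.6%, beside 1.45% and 2.45%.

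Among words with at least 20 such probes, the full element stood above the other palindromes with central CG in this comparison. Some palindromes with fewer probes read higher. On array 1 these were TGTCGACA with 60% of 5 and AGACGTCT with 50% of 6, and on array 2 CAACGTTG with 66.7% of 6 and GTACGTAC with 100% of 1. Promoters that held another palindrome with central CG, and not the CRE, gave shares of 3.33% to 25.6% over 25 palindromes on array 1, with a median of 13%. On array 2 they gave 6.56% to 35% over 24, with a median of 13.8%. Promoters with a word 1 base from the element gave a median of 27.5% over 10 words on array 1 and 35.7% over 11 on array 2. On array 1 none of them exceeded the 46.5% of the full element. On array 2, CGACGTCA with 56.2% of 32 probes and TTACGTCA with 55.2% of 29 exceeded its 50.8%.

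**Figure D5:**
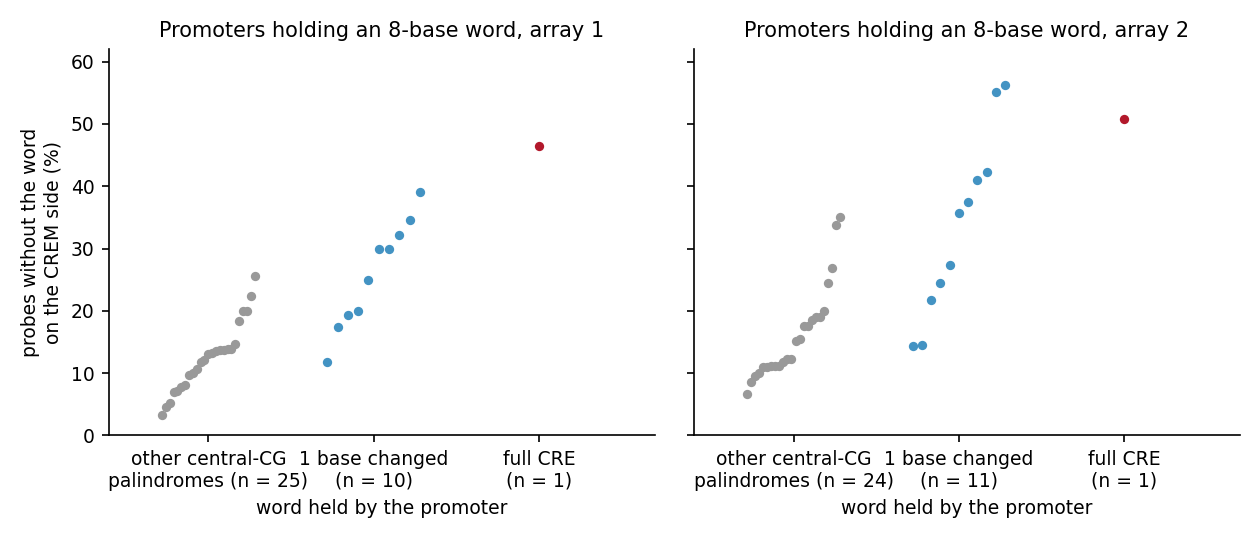
The share of probes with 0 to 2 CpG on the CREM side (vertical axis, percent) is shown for RefSeq promoters that hold a given 8-base word but read on probes without that word, 1 point per word with at least 20 probes. The full CRE, at 46.5% and 50.8%, lies above all other central-CG palindromes on both arrays and above all words with 1 base changed on array 1 but not on array 2.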

How the data were processed

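The deposited scanner files hold, per spot, the intensity of each channel, a log10 ratio and quality flags; they come from Agilent's Feature Extraction software with positions on mm9, per the file headers. The deposited value table holds log2 ratios; R 2.10.1 and limma are given in the submitters' processing notes, and limma loess on background-subtracted signals returned it with a largest difference of 5e-08.

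Here, log2 of processed Cy5 over Cy3 was centred on the median of the used probes (shift 0.02), with no loess. Control spots, outlier spots and probes dim in both channels were dropped (228277 and 226404 probes used); 1 saturated spot per array was kept. A CRE probe was compared with probes of equal GC and CpG (classes of at least 20 probes), and with probes starting within 500 bp. Where the IgG signal was not well above background, its value was replaced by the lowest signal among probes well above background if that was higher, and the fold was given as a bound. RefSeq promoters were matched by whole probe sequence, and gene names were updated for 32 CRE probes, current for 229 and kept as in the file for 5. Code was checked on simulated data. R 4.3.3, limma 3.58.1, Python 3.11.15 and pandas 2.3.3 were used.

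The CRE probes, gene lists and the rule for named probes (per array the 12 highest and 6 lowest CRE probes well above background in both channels, listed genes, places with several elements, and the nearest to the threshold) were chosen with earlier results of these data known. The comparisons of flanks from 400 to 1000 bp and of promoters that hold a word were added after seeing the data. The single value of 1 CRE probe is not reported here.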

Additional observations from a re-analysis of the deposited data

How the results depend on the processing

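Of 178 alternative values of the main comparisons, 136 stayed within the control-spot SD (shares: within 1.5 times) and 42 moved further. Of 686 alternative values of single CRE probes at 2-fold or more on either side, 288 stayed, 380 moved and 18 changed sign. With normexp background correction the CREM-side share of CRE probes was 6.94% and 11.3% (all probes 2.13% and 4.88%). The IgG-side share was 2.08% and 7.83%, and the difference to neighbours -0.12 and -0.24. On array 2 the difference at equal GC and CpG was only 0.04. With loess and with the authors' value table, the CREM-side share on array 2 was 10.4% (all probes 3.76% and 3.8%) and the difference to neighbours -0.29. With the GC trend removed, the IgG-side share was 8.33% and 13.9%, the median turned to 0.10 and 0.07, the difference to half-site probes to 0.12 and 0.07, and that to neighbours was -0.32 on array 2. With both channels above background the median on array 2 was -0.34. With the median of 3 neighbouring probes, the medians turned to 0.06 and 0.15, the differences to half-site probes to 0.13 and 0.16, those to neighbours were -0.12 and -0.10, and on array 2 the IgG-side share was 5.83% and the difference at equal GC and CpG 0.48. With the element at least 10 bases from both probe ends, array 2 gave an IgG-side share of 14.5%, a median of 0.11, and differences of 0.38 at equal GC and CpG, 0.15 to half-site probes and -0.10 to neighbours. Neighbours within 1000 bp gave -0.59 on array 2. At 1.5-fold the shares on array 1 were 22.9% and 32.6%, and at 4-fold they were 4.86% and 8.33% on array 1 and 6.09% and 6.96% on array 2. Among results added after seeing the data, normexp gave 22% (3.14% without the element) and 33.6% (7.7%) of probes in promoters with the element on the CREM side, and 12% (2.09% of the remaining probes) in the flanks from 400 to 1000 bp on array 1.

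Some single probes changed sign. With normexp, Nf1 turned to -0.12, Mpo to -0.03, Dio2 to -0.41, Btn1a1 to -0.29 and Trabd to -0.43, all with IgG not well above background. With the GC trend removed Tmc7 turned to 0.16. With the median of 3 neighbouring probes, Gata3 turned to 0.64, Sgip1 to -0.01, Birc2 to 0.11, Tbrg4 to 1.51, Rnmtl1 to 0.16, Nf1 to -0.57, 2310016C16Rik to 0.33, 2610028A01Rik to 1.64, Ncaph2 to 0.90, Tbl3 to 0.25, Thoc1 to 1.53 and Wdr61 to 2.25. The cause of these changes was not tested. No paired analysis was possible because each array is a group of 1 sample with its own probes. Signal over background limits the CREM-side ratios of 7 CRE probes on each array to bounds.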

Other observations

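Some genes of the fixed lists have the full element in a RefSeq promoter but on no probe, and the promoter probes beside it give their level. Snrpa, a protein of the U1 small nuclear ribonucleoprotein, had 3.07 on its probe, with signals of 13305 in CREM and 1560 in IgG. Snrpg, a core Sm protein, had 2.49 on a probe measured in both channels and at least 3.31-fold on a probe whose IgG signal of 62.1 was not well above background. Maff, a small Maf factor, had 1.70. The textbook CRE genes read lower: Sst, the somatostatin gene in which the element was first described, had 0.25 and 0.59, and Th, tyrosine hydroxylase, -0.46 and -0.95. Areg had 0.36 and -1.82, and Scg2 -1.85 on one probe; on its other probe the IgG signal was not well above background and no bound above 1 could be given. Dusp1 had 0.65 on one probe, and on the other, where the CREM signal was not well above background, IgG was at least 3.49-fold higher. Prkar1a, a regulatory subunit of protein kinase A, had 1 used probe, with the IgG signal not well above background and no bound above 1.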
